A study of Mus musculus with 2 samples.

Results

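The serine synthesis and folate one-carbon genes described here are 9 enzyme genes, Phgdh, Psat1, Psph, Shmt1, Shmt2, Mthfd1, Mthfd1l, Mthfd2 and Mtr, taken by gene symbol from 46398 distinct symbols. Each had 1 row in the expression table of each library. RNA was sequenced from regulatory T cells of the effector type (effector Treg cells) in 2 mouse genotypes, Nrn1+/- and Nrn1-/-, with 1 library per genotype. Both came from C57BL/6 mice that also carried the Foxp3DTRgfp allele, and the cells were sorted as CD4+, CD25+, high for CD44 and positive for the Foxp3 green fluorescent reporter. Nrn1 encodes neuritin, a small protein held at the cell surface by a lipid anchor. The library titled wild type has the genotype label Nrn1+/-, so the comparison is of a heterozygous library with a null library, as they are called below. The labels give no age, no treatment and no number of mice per library.

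Serine is made from a glycolytic intermediate in a short chain of steps, and its side chain carbon is then handed to folate. Folate carries that carbon through parallel sets of reactions in mitochondria and cytosol, and the cell uses it to make purines, thymidylate and methionine. T cells are known to switch these enzymes on when they are activated and divide.

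The unit is FPKM, a fragment count divided by transcript length and library depth, so levels can be compared between genes. Log2 ratios set null over heterozygous after 1 FPKM is added to both. This understates the difference of low genes, most of all of those near 1 FPKM. Folds quoted for single genes are plain FPKM ratios with nothing added, while the 1.5-fold threshold applies to the log2 ratio. With 1 library per genotype there is no replicate error and no test, and each difference below is between these 2 libraries. Paired values give the heterozygous library first. In such bulk samples, fewer cells of a type and less RNA per cell cannot be told apart.

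The targeted gene followed its labels, at 66.5 FPKM in the heterozygous library and 4.62 FPKM in the null library, 14.4-fold lower. All 7 sort and Treg markers were detected in both libraries, and 6 of them were lower in the null library, among them Foxp3 (257 and 195 FPKM). Over all listed markers of other cells, the summed level was 5.83 and 7.52 FPKM for 6 B and plasma cell genes, all 6 of them higher in the null library. It was 1.18 and 1.08 FPKM for 8 myeloid and dendritic cell genes, 9.84 and 8.65 FPKM for 5 CD8 T and NK cell genes, and 0.177 and 0.0591 FPKM for 5 erythroid genes. Of the myeloid and dendritic genes 1 was listed at 0 in the heterozygous and 2 in the null library, of the erythroid genes 2 and 3, and no marker of these 4 lists was above 5.14 FPKM. Every member was above that level in both libraries.

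In these cells the 9 genes spanned from 12.3 to 292 FPKM, and every one had a higher value in the null library as deposited. The cytosolic folate enzymes Shmt1 and Mthfd1 stood apart at 1.77-fold and 1.68-fold higher. The serine synthesis genes Phgdh and Psat1 and the mitochondrial enzymes Shmt2 and Mthfd1l were between 1.17-fold and 1.30-fold higher, as was Mtr (1.28-fold), while Mthfd2 was 1.06-fold higher and Psph nearly even. The median log2 ratio of the 9 was 0.27, beside 0.04 over the 10645 protein-coding genes whose mean reached 1 FPKM. Of those protein-coding genes 54.3% were higher by any amount, against 9 of 9 members, and so were 59.7% of the 5848 protein-coding genes at levels between those of the lowest and highest member. At least 1.5-fold higher were 7.01% of all protein-coding genes, 7.1% of those at the members' levels and 2 of the 9 members. At least 1.5-fold lower were 3.69% of the protein-coding genes and no member. No member was 2-fold higher, which 1.21% of the protein-coding genes were.

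**Figure D1:**
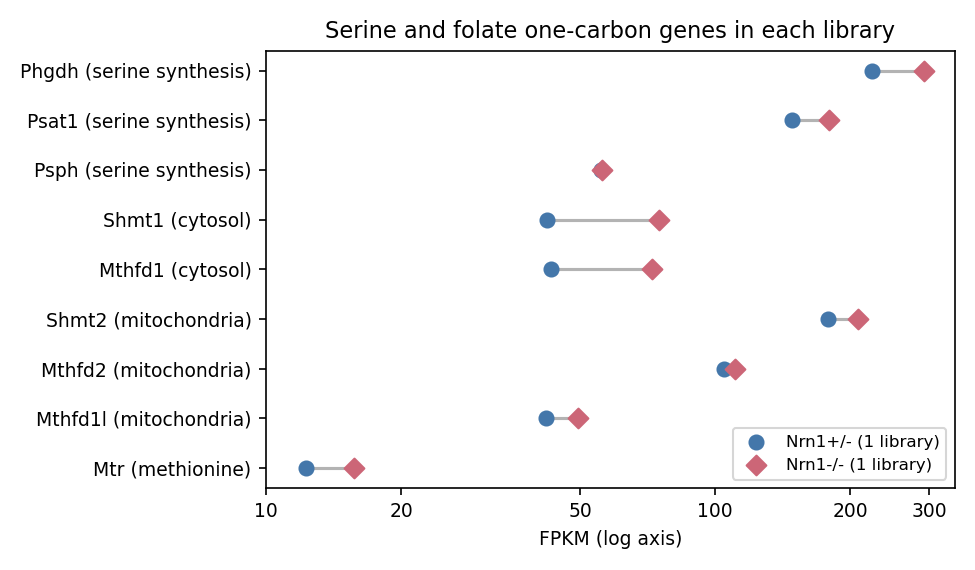
FPKM of the 9 genes in the heterozygous library (circles) and the null library (diamonds), 1 library each, on a log axis, with a line joining the values of a gene. The lines of Shmt1 and Mthfd1 are the longest, and the points of Psph (55.8 and 56.0 FPKM) overlie each other.

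Phgdh encodes phosphoglycerate dehydrogenase, the enzyme that commits 3-phosphoglycerate to serine, and it was the most abundant member. It stood at 224 FPKM in the heterozygous library and at 292 FPKM in the null library. This is a log2 ratio of 0.38, above 83.9% of the protein-coding genes measured, and a gain of 67.9 FPKM, the largest in absolute terms of the 9. Psat1, the aminotransferase of the next step, stood at 148 and 179 FPKM with a log2 ratio of 0.27. Psph, the phosphatase that releases serine, did not follow the steps before it, with 55.8 and 56.0 FPKM and a log2 ratio of 0.00. Psph lies at GRCm38 chromosome 5, 129765558 to 129787449, minus strand, and in the authors' table it shares a locus with Cct6a, a chaperonin subunit gene that was higher in the null library (316 and 468 FPKM). Without Psph the median of the other 8 members was 0.30.

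The serine hydroxymethyltransferases move the side chain carbon of serine onto folate and leave glycine, Shmt1 in the cytosol and Shmt2 in mitochondria. Shmt1 (GRCm38 chromosome 11, 60788104 to 60811718, minus strand) stood at 42.2 FPKM in the heterozygous library and 74.8 FPKM in the null library. Its log2 ratio of 0.81 was the highest of the 9 and lay above 97.3% of the protein-coding genes. Smcr8, which shares its locus in the authors' table, was at 18.6 and 16.7 FPKM and thus had its lower value where Shmt1 had its higher one. Shmt2 (chromosome 10, 127517123 to 127522444, minus strand) was the more abundant of the pair, at 179 and 209 FPKM, with a log2 ratio of 0.22.

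Mthfd1 encodes the cytosolic enzyme that joins 3 folate activities in a single protein, among them the formate-using synthetase. It lies at GRCm38 chromosome 12, 76255298 to 76319803, plus strand. It stood at 43.0 FPKM in the heterozygous library and at 72.4 FPKM in the null library. Its log2 ratio of 0.74 lay above 96.3% of the protein-coding genes, and it shared its locus with no other gene of the authors' table. In mitochondria the same chemistry is divided between Mthfd2, a dehydrogenase and cyclohydrolase, and Mthfd1l, the synthetase that releases formate. Mthfd2 stood at 105 and 111 FPKM (log2 ratio 0.08) and Mthfd1l at 42.1 and 49.6 FPKM (log2 ratio 0.23). Both cytosolic genes were therefore more than 1.5-fold higher in the null library, while the 3 mitochondrial genes differed by 1.06-fold to 1.18-fold. These 3 mitochondrial genes and Psat1 also shared loci with other genes in the authors' table, Shmt2 with Ndufa4l2. Phgdh and Mtr did not.

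Mtr, the B12-dependent methionine synthase that passes a folate methyl group to homocysteine, was the lowest member at 12.3 and 15.7 FPKM. Its log2 ratio was 0.33, above 80.6% of the protein-coding genes. In level it lay above 42.1% of them, whereas the other 8 members lay above 77.1% to 97.1%.

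**Figure D2:**
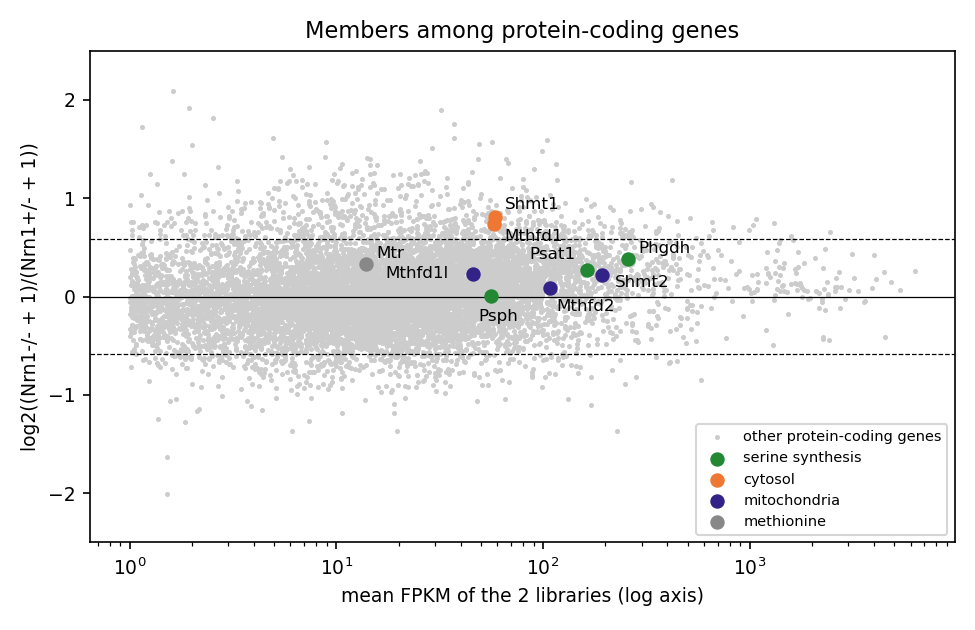
Log2 ratio of Nrn1-/- over Nrn1+/- (pseudocount 1 FPKM) against the mean FPKM of both libraries on a log axis, for protein-coding genes averaging 1 FPKM or more in grey and the members in colour by role. Dashed lines mark 1.5-fold. Shmt1 (0.81) and Mthfd1 (0.74) are the members above the upper line, and 1 gene outside the plotted range, Nrn1 (-3.59), is not drawn.

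A ratio of 2 genes within a library does not depend on how the libraries were scaled to each other. Shmt2 was 4.23 times as abundant as Shmt1 in the heterozygous library and 2.79 times as abundant in the null library. The mitochondrial to cytosolic ratio was thus 1.52-fold lower in the null cells. Its 95% counting interval was 1.46 to 1.58, by a log-normal approximation on fragments estimated for the longest coding transcripts. Mthfd2 over Mthfd1 went from 2.43 to 1.53, 1.59-fold lower (1.52 to 1.65), and Mthfd1l over Mthfd1 from 0.977 to 0.685, 1.43-fold lower (1.36 to 1.49). All 3 ratios had their lower value in the null library, which restates the folds of the single genes given above. These intervals cover counting error only and say nothing of the spread between mice. The ratio of Mthfd2 to Mthfd2l, its less abundant mitochondrial relative (3.91 and 2.66 FPKM), went the other way, from 26.8 to 41.8.

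Depth was read from the spacing of low values, by which 1 fragment on 1 kb was worth 0.019 FPKM in the heterozygous library and 0.0248 FPKM in the null library. On its longest coding transcript Mtr then rested on about 2730 and 2676 fragments, the fewest of the 9, and Phgdh on about 19598 and 19568. The 95% counting interval of the fold (exact binomial, Clopper-Pearson) was 1.71 to 1.83 for Shmt1 and 1.63 to 1.74 for Mthfd1. It was 1.28 to 1.33 for Phgdh and 1.03 to 1.09 for Mthfd2, and for Psph it ran from 0.959 to 1.05 and included 1. On the shortest coding transcript the interval of Mthfd2 also included 1 (0.974 to 1.16). The fragment estimates were then lower for every member but Mtr, which has a single coding transcript. Phgdh rested on about 2545 and 2542 fragments, and Psph had the fewest, about 823 and 633.

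The scaling between libraries mattered more than counting. As deposited, the heterozygous library added up to 645876 FPKM and the null library to 790935 FPKM, and 71090.6 FPKM of the second sum came from the small RNA Snord19, listed at 0 in the first. Rescaling both to a sum of 1000000 moved the protein-coding genes by a median of -0.28 on the log2 scale. Then 4 of the 9 members were higher (Shmt1, Mthfd1, Phgdh and Mtr), against 24.5% of the protein-coding genes, and none reached 1.5-fold. Among protein-coding genes 2.59% were then past 1.5-fold upwards and 15.5% downwards. The log2 ratios were 0.53 for Shmt1 and 0.45 for Mthfd1, while Mthfd2 stood at -0.21 and Psph at -0.28. Rescaling on protein-coding rows alone moved those genes by a median of -0.12 and left 7 members higher, with Shmt1 (0.69) and Mthfd1 (0.62) still past 1.5-fold, beside 4.66% of the protein-coding genes past it upwards and 8.07% downwards. Each of these scalings applies a single factor per library, so the order of the 9 could hardly change. Shmt1 and Mthfd1 had the highest ratios throughout, and Psph and Mthfd2 the lowest.

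**Figure D3:**
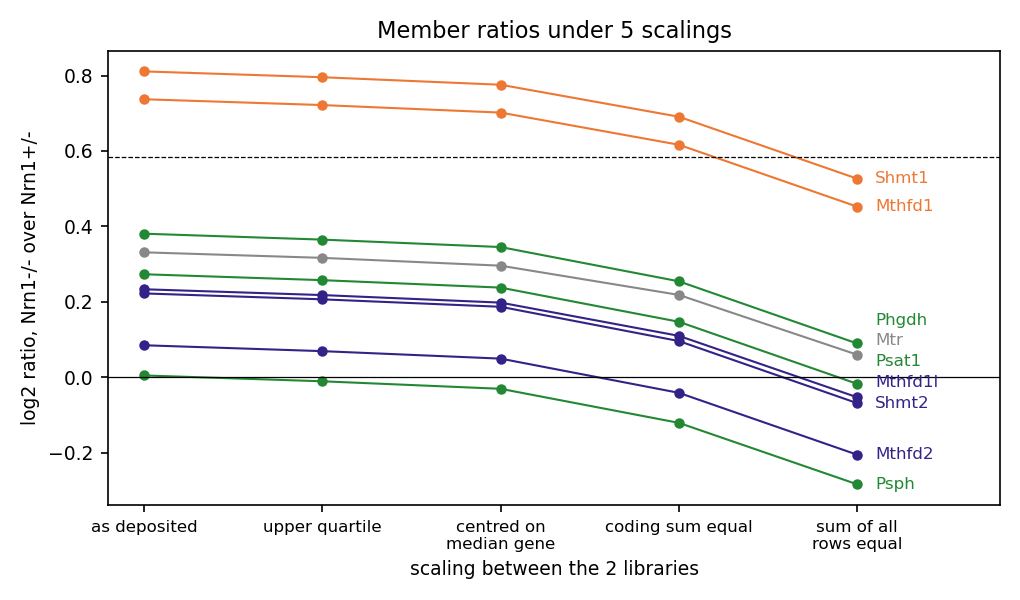
Log2 ratio of each member under 5 scalings of the libraries to each other, coloured by role as serine synthesis (green), cytosolic (orange), mitochondrial (dark blue) and methionine synthase (grey). The dashed line marks 1.5-fold. From the deposited values to equal sums of all rows, Shmt1 goes from 0.81 to 0.53 and Psat1 from 0.27 to -0.017.

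The stretches just before the transcript starts of the cytosolic pair and of the mitochondrial counterparts are shown so that the cytosolic genes can be read beside Shmt2 and Mthfd2. RefSeq windows (build GRCm38.p6) matched all 9 members by symbol, with 2 starts for Psat1, and 250 bases before each start were searched on both strands. For Shmt2 the RefSeq start was also that of the GENCODE gene (127522444). For Shmt1 it lay inside the GENCODE gene (60811265, with the gene starting at 60811718), as it did for Mthfd2 (83317604 and 83325908). For Mthfd1 it lay before the GENCODE gene (76255232 and 76255298). The letters CCAAT, the core of the box bound by NF-Y, were found before 7 of the 9 genes. By window this was 7 of the members' 10, beside 33.8% of all 32851 RefSeq windows of that length. The 120 bases before each start follow, 5′ to 3′ on the gene's strand, with CCAAT or its reverse complement ATTGG in capitals.
Shmt1, chr11:60811266-60811385, minus strand: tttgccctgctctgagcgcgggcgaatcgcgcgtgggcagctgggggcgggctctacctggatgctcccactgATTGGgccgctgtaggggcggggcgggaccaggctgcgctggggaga
Mthfd1, chr12:76255112-76255231, plus strand: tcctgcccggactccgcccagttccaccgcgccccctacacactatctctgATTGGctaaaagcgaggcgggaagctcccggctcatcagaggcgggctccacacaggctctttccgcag
Shmt2, chr10:127522445-127522564, minus strand: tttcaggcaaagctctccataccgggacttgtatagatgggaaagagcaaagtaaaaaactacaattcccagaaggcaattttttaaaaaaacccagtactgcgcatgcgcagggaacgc
Mthfd2, chr6:83317605-83317724, minus strand: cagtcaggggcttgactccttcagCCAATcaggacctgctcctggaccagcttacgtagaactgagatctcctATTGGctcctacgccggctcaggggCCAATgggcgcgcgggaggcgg
Shmt1 and Mthfd1 each hold a single ATTGG, beginning 47 and 69 bases before the start. Mthfd2 holds 3 matches, beginning 96, 47 and 22 bases before it, and Shmt2 holds none. Mthfd1l, like Shmt2, has no CCAAT match. The E-box CACGTG (6.02% of all windows), the amino acid response core TGATGNAA (3.45%) and the E2F letters TTTCGCGC or TTTGGCGC (0.654%) were in no member's window. A match describes the letters only, and both the cytosolic genes and Mthfd2 hold CCAAT.

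Thymidylate and purine synthesis draw on the carbon units, and their genes differed in the same direction as Shmt1 and Mthfd1. Not every enzyme of these routes takes up a carbon unit itself. All 7 genes listed for these routes were higher in the null library, beside 54.3% of the protein-coding genes, with a median log2 ratio of 0.68. At least 1.5-fold higher were 6 of the 7, beside 7.01% of the protein-coding genes. Tyms, the thymidylate synthase that consumes a folate carbon, stood at 70.5 and 145 FPKM. Gart and Atic, whose products take up formyl groups in purine synthesis, had 71.7 and 116 FPKM, and 64.6 and 104 FPKM, in that order. Paics (99.7 and 142 FPKM), which shares a locus with Ppat in the authors' table, was the one below 1.5-fold. After rescaling to a sum of 1000000 all 7 were still higher, beside 24.5% of the protein-coding genes, and 2 reached 1.5-fold, beside 2.59%.

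Of 14 other genes of folate interconversion and uptake, 8 averaged 1 FPKM or more, with 4 higher, 4 lower, none past 1.5-fold and a median of 0.06. Among the protein-coding genes 54.3% were higher, with a median of 0.04. The reduced folate carrier Slc19a1 (42.3 and 60.2 FPKM), the folate polyglutamate synthase Fpgs (17.4 and 25.2 FPKM) and the mitochondrial folate carrier Slc25a32 (8.96 and 12.5 FPKM) had log2 ratios of 0.44 to 0.51. Mthfs and Mthfsl are related copies between which reads may have been split. Neither Aldh1l1 (0.43 and 0.52 FPKM) nor Aldh1l2 (1.32 and 0.24 FPKM), the cytosolic and mitochondrial formyl folate dehydrogenases, reached the minimum mean.

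Among genes of glycine and serine handling, Gldc, the decarboxylase of the glycine cleavage system, was at 0.16 and 0.34 FPKM, below the minimum. The 3 other cleavage genes were measured, with Gcsh (35.7 and 48.2 FPKM) and Dld (42.8 and 51.3 FPKM) higher and Amt (2.42 and 1.33 FPKM) lower. Gcat, a mitochondrial ligase of glycine and acetyl-CoA, was 2.11-fold higher at 13.1 and 27.7 FPKM, while Srr, the serine racemase, stood at 9.61 and 10.05 FPKM. Sds, Sdsl and Tdh were below the minimum.

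Carriers of serine and glycine were divided, with 3 of 9 measured higher, 6 lower and a median of -0.22. Of the protein-coding genes 54.3% were higher. The carriers past 1.5-fold were 3 lower, beside 3.69% of the protein-coding genes, and 1 higher, beside 7.01%. Sfxn1, a mitochondrial serine carrier, was 1.69-fold higher at 31.3 and 52.9 FPKM. Its relative Sfxn3 was lower at 24.6 and 14.1 FPKM. At the cell surface, Slc6a9, a glycine carrier (15.1 and 6.12 FPKM), and Slc1a4, a carrier of small neutral amino acids (10.2 and 6.18 FPKM), were past 1.5-fold lower. Slc1a5, which carries glutamine and serine, was the most abundant of the list and nearly even at 240 and 234 FPKM.

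In the methionine cycle and transsulfuration, 9 of 15 genes were measured, with 5 higher and 4 lower and a median of 0.15. Protein-coding genes had a median of 0.04, with 54.3% of them higher. Ahcy, which clears the S-adenosylhomocysteine left by methylation, was 2.04-fold higher at 60.8 and 124 FPKM. Its relative Ahcyl2 was lower at 122 and 85.0 FPKM. Mat2a, the S-adenosylmethionine synthetase of these cells, stood at 105 and 143 FPKM and its regulatory subunit Mat2b at 77.8 and 56.5 FPKM. Mtrr, the reductase that reactivates methionine synthase, was at 12.2 and 13.6 FPKM, close to the levels of Mtr. Cth, which makes cysteine from cystathionine, was past 1.5-fold lower at 11.7 and 6.93 FPKM, and Cbs, the step before it, was at 0.22 and 0.64 FPKM.

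**Figure D4:**
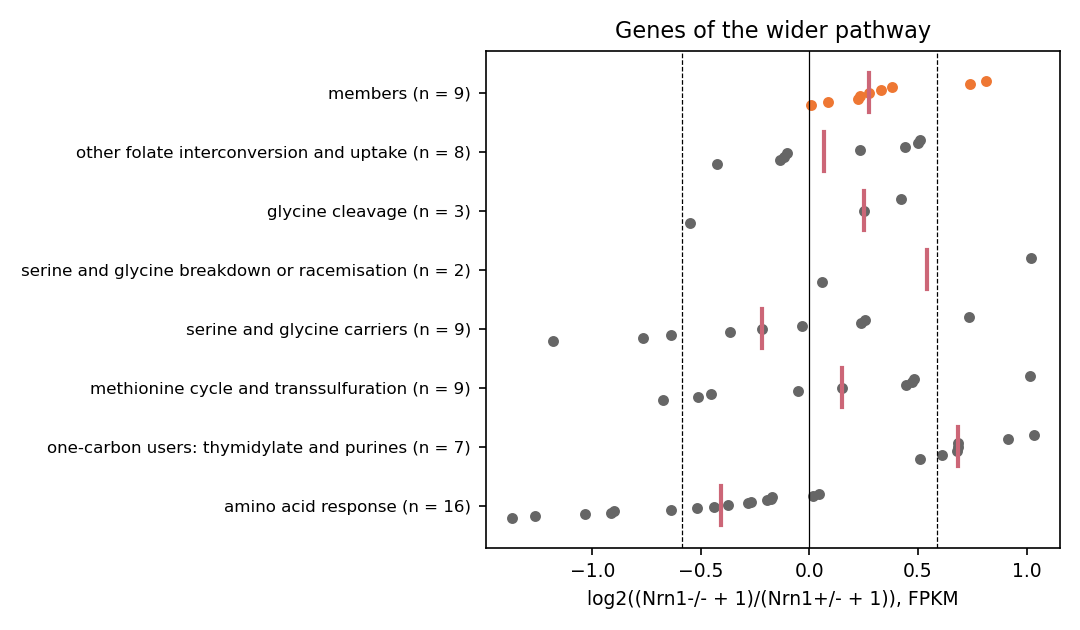
Log2 ratios (pseudocount 1 FPKM) of the measured genes of each list, 1 point per gene, with the list's median as a red bar and dashed lines at 1.5-fold in each direction. The members (orange) run from 0.00 to 0.81, all 7 thymidylate and purine genes lie above 0.5, and 14 of the 16 amino acid response genes lie below 0.

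Phgdh, Psat1, Psph, Shmt2 and Mthfd2 are also known as targets of ATF4, the transcription factor of the amino acid response. Of 16 measured genes of that response 14 were lower, with a median of -0.41, beside 45.7% of the protein-coding genes lower by any amount. At least 1.5-fold lower were 6 of the 16, beside 3.69% of the protein-coding genes. Among the 6 were Trib3 (28.6 and 10.5 FPKM), Nupr1 (10.8 and 3.93 FPKM) and Chac1 (10.5 and 4.63 FPKM). With them were Atf5 (28.3 and 14.6 FPKM), Ddit3 (70.6 and 37.4 FPKM) and Ddit4 (122 and 78.1 FPKM). Atf4 itself stood at 291 and 258 FPKM and Asns, the asparagine synthetase, at 76.1 and 58.4 FPKM. The 5 members named had log2 ratios from 0.00 (Psph, nearly even) to 0.38 as deposited. With upper-quartile scaling Psph was at -0.011. After rescaling to a sum of 1000000, 4 of the 5 members (Psat1, Psph, Shmt2 and Mthfd2) were between -0.28 and -0.017. All 16 response genes were then lower, where only 24.5% of the protein-coding genes were higher. At least 1.5-fold lower were then 9 of the 16, beside 15.5% of the protein-coding genes.

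Cell division genes differed in the same direction as the cytosolic pair. All 12 division genes looked at, a list chosen after the values were seen, were higher in the null library, beside 54.3% of protein-coding genes. At least 1.5-fold higher were 11 of them, beside 7.01% of protein-coding genes. After rescaling to a sum of 1000000 all 12 were higher and 9 reached 1.5-fold, beside 24.5% and 2.59% of protein-coding genes. Mki67, a marker of cycling cells, stood at 26.6 and 53.8 FPKM and Pcna, the DNA polymerase clamp, at 236 and 389 FPKM. Myc, a transcription factor that activates several one-carbon genes, stood at 152 and 189 FPKM. The log2 ratio of Myc was 0.32 as deposited and 0.027 after the same rescaling. The part of cell division in the ratios of Shmt1 and Mthfd1 was not tested.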

How the data were processed

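Poly(A) RNA of sorted effector Treg cells was made into NEBNext Ultra libraries, per the labels' protocols, and 1 library of each of 2 genotypes was analysed. The authors deposited 1 FPKM value per gene and library. The file headers give no unit, so FPKM was taken from the values and, per the submitters' processing notes, from the use of Cuffnorm, listed there with TopHat, Cuffdiff, FastQC and the builds mm10 and GRCm38. Not given in the sources used here are the annotation, the strand setting and the library scaling of the authors.

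Each file held 46511 rows, and rows of the 82 repeated symbols were summed. Gene class and transcript lengths came from GENCODE M21 by gene identifier (46000 matched), with the authors' class for the rest. Starts of the authors' loci lay 1 base before those of GENCODE where gene models matched, so gene positions printed are those of GENCODE. The stretches before transcript starts follow RefSeq starts instead. Depth was estimated from genes with a single transcript over 1000 bases: after 230 bases were taken off the length, FPKM times kilobases came within 0.1 of a whole multiple of 1 common value for 96.5% of 1362 genes (Nrn1+/-) and 97.3% of 1234 genes (Nrn1-/-), where chance gives 20%. Transcripts were limited to the authors' locus. As no molecular identifiers were used, fragments are not independent, and intervals cover counting error only.

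With 1 library per genotype no test was run. All 9 members are described, other pathway genes come from lists, and any of those with a mean of at least 1 FPKM could be named. Genes past 1.5-fold were to be named first, but not all of them are named. Genes below that minimum are named to account for a list. The members, lists and motifs were chosen with earlier results of these data known. A few genes of the lists are not reported here and are not in their counts. Other scalings, a pseudocount of 0.1, other minimum means and the largest row of a symbol were tried. The ratio and depth calculations were tested on simulated data. Python 3.11.15, pandas 2.3.3, numpy 2.4.6 and scipy 1.17.1 were used.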

Additional observations from a re-analysis of the deposited data

How the results depend on the processing

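Scaling was the choice that moved these results. With both libraries rescaled to a sum of 1000000 over all rows, 4 members were higher in place of 9, 0 in place of 2 reached 1.5-fold and the median log2 ratio was -0.017. Rescaled on protein-coding rows the median was 0.15, and centred on the median protein-coding gene it was 0.24. Upper-quartile scaling, a pseudocount of 0.1 FPKM, the largest row of a symbol and leaving out Psph (added after seeing the data) left the counts within 1.5 times and the median within the counting error of Psat1, the median member. With the pseudocount of 0.1 FPKM, 8.48% of the protein-coding genes were at least 1.5-fold higher, in place of 7.01%. The share at least 1.5-fold lower was 5.61%, in place of 3.69%. No member was 1.5-fold lower under any of the 6 alternatives run. Over those alternatives the log2 ratio ran from 0.53 to 0.82 for Shmt1 and from 0.45 to 0.75 for Mthfd1, and the ratios within a library do not depend on scaling. Of the other pathway lists, the medians of the thymidylate and purine genes, the carriers and the amino acid response kept their sign under the alternatives run. At a sum of 1000000 over all rows the medians turned to -0.21 for the other folate genes, -0.033 for glycine cleavage and -0.12 for the methionine cycle. The other folate median was also negative with protein-coding rescaling (-0.054) and with no filter on low values (-0.04), and with no filter that of serine and glycine breakdown was -0.027. No paired analysis was possible because each genotype has 1 library, and for the same reason no library could be left out.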
